A study of Mus musculus with 6 samples.

Results

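The ISG15 conjugation system was represented by 5 genes, chosen by their symbols among the 52550 genes of the deposited table. They were Isg15, the modifier, Uba7, its activating enzyme (E1), Ube2l6, its conjugating enzyme (E2), Herc6, its ligase (E3), and Usp18, the protease that removes it. All 5 had enough reads to be tested. Bone marrow-derived macrophages of the C57BL/6 strain came from mice without Msr1 (MSR1 KO) or from mice with it (MSR1 WT), with 3 libraries per genotype. Marrow cells had been grown for 7 days in 25 ng/ml M-CSF, the growth factor that drives marrow cells to become macrophages. The macrophages of both genotypes then shared a transwell culture with bone marrow stem cells (BMSCs) for 48 h, so no library shows macrophages cultured alone. Age and sex of the mice are not given in the sources used here, nor is the genotype of the BMSCs for these libraries. The paper describes the 3 libraries per genotype as biological replicates, without stating whether they came from separate mice or separate cultures. The p-values therefore measure only the spread between these libraries, which may not include differences between mice.

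ISG15 is a ubiquitin-like protein made of a pair of ubiquitin-like domains. It is joined to lysines of other proteins by a cascade that parallels that of ubiquitin, in which UBA7 activates it, UBE2L6 carries it and an HERC ligase, in the mouse HERC6, passes it on. USP18 cuts it off again and, apart from this, binds the interferon receptor chain IFNAR2 and dampens signalling. Macrophages are known to switch on all of these genes in response to type I interferon, through transcription factors, STAT2 and IRF9 among them, that act at the interferon-stimulated response element (ISRE). MSR1 is a scavenger receptor of macrophages that takes up modified lipoproteins.

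The question was whether macrophages without MSR1 differed from those with it in the transcripts of this cascade. All 5 members had more reads in every MSR1 KO library than in any MSR1 WT library. The differences between the genotype means ran from 1.62-fold for Uba7 to 2.56-fold for Isg15. Isg15, Herc6 and Uba7 passed an adjusted p under 0.05 in edgeR's quasi-likelihood test, and Ube2l6 and Usp18 did not. Of all 16402 genes tested, 2.25% were called higher in MSR1 KO by that rule and 2.66% lower.

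The letters in front of Isg15 are shown because the ISRE is the element through which interferon is known to act on this gene. The stretch holds the 250 bases before the start of Isg15, at chr4:156200819-156201068 on the minus strand of GRCm38.p6 (RefSeq). It is written 5′ to 3′ on the strand of the gene. The capitals mark matches to the ISRE core, GAAA followed by any 2 bases and GAAA, searched on both strands.

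Isg15 upstream: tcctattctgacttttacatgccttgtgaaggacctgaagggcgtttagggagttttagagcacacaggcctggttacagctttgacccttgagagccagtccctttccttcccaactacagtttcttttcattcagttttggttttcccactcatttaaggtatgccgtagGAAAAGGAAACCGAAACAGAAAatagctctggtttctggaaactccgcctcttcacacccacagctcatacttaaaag

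The capitals hold 3 overlapping matches, GAAAAGGAAA, GAAACCGAAA and GAAACAGAAA, which run from 78 to 57 bases before the start. Neighbouring matches share 4 bases. Among 32851 mouse promoters of the same length, 2.98% held at least 1 such match. The same stretch before Uba7, Ube2l6 and Herc6 held 0 matches to these letters, which says only that this spelling is not in these windows. The core of the interferon-gamma activated site (GAS), TTCNNNGAA, was in none of the 4 stretches, against 7.02% of all promoters. RefSeq's table had entries for 4 of the 5 members, and Usp18 is named only.

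Msr1, the targeted gene, was read at 2118, 1825 and 2000 counts with the MSR1 KO genotype and at 7543, 9163 and 9219 with MSR1 WT, and its log2 fold change was -2.02 (SE 0.135, edgeR adjusted p = 0.0012). Total counts per library lay between 36143518 and 47417448. Read counts are given below as deposited and as CPM, in which each library is scaled to the same total after TMM correction for its composition. All fold changes are MSR1 KO over MSR1 WT, and positions are on GRCm38.

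Isg15, the modifier, lies at chr4:156199424-156200818 on the minus strand and has 2 exons with 756 bases. Replicates 1 to 3 of MSR1 KO gave 2055, 2597 and 2910 counts, and those of MSR1 WT gave 882, 885 and 1337. In CPM these were 57.2, 65.2 and 62.6 against 21.4, 18.7 and 32.4. MSR1 WT replicate 3 was the highest of its group, and the lowest MSR1 KO library was still 24.8 CPM above it. The means were 61.7 ± 4.09 CPM in MSR1 KO and 24.1 ± 7.26 CPM in MSR1 WT (SD, n = 3 each). The log2 fold change was 1.35 (SE 0.189, 2.56-fold), with an edgeR adjusted p of 0.0142. Without MSR1 WT replicate 1 it was 1.27 and the adjusted p 0.0709, the only one of 12 alternatives in which Isg15 lost the call. GENCODE lists a processed pseudogene, AC151275.1, with 95.2% identity over 481 of the 483 coding bases of Isg15. The deposited table has no row for it, so any reads from this copy cannot be told apart from those of Isg15.

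Uba7 encodes the E1, which activates ISG15 with ATP and takes it up on a cysteine. The gene spans chr9:107975505-107984060 on the plus strand, with 24 exons in its longest coding transcript. Replicates 1 to 3 of MSR1 KO gave 5207, 6582 and 5614 counts, and those of MSR1 WT gave 3089, 3917 and 4517. In CPM these were 145, 165 and 121 against 74.9, 82.6 and 109. The gap between the groups was 11.4 CPM, between MSR1 KO replicate 3 and MSR1 WT replicate 3. Mean levels were 144 ± 22.3 CPM and 88.9 ± 18.1 CPM (SD, n = 3 each). The log2 fold change was 0.69 (SE 0.160, 1.62-fold), and the edgeR adjusted p of 0.0496 lay just under the threshold. With 1 library left out at a time it stayed under 0.05 only without MSR1 WT replicate 3 (0.0173), and it reached 0.171 without MSR1 WT replicate 1. A second gene, Gm20661, shares 233 exon bases (3.48%) with Uba7 on the same strand and had at most 14 counts in any library.

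Ube2l6 encodes the E2 that receives ISG15 from UBA7. It lies at chr2:84798828-84810335 on the plus strand and has 4 exons. Replicates 1 to 3 of MSR1 KO gave 2571, 2885 and 2449 counts, and those of MSR1 WT gave 1578, 1201 and 2143. In CPM these were 71.6, 72.5 and 52.7 against 38.3, 25.3 and 51.9. MSR1 KO replicate 3 and MSR1 WT replicate 3 were only 0.816 CPM apart, and MSR1 WT replicate 2 was the lowest library. Mean levels were 65.6 ± 11.2 CPM and 38.5 ± 13.3 CPM (SD, n = 3 each). The log2 fold change of 0.77 (SE 0.241, 1.70-fold) did not pass, with an edgeR adjusted p of 0.125. Without MSR1 WT replicate 3 it was 1.04 and passed (adjusted p = 0.0386), and it passed with DESeq2's Wald test (0.0088).

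Herc6 encodes the E3, which brings the loaded E2 to substrates. The gene spans chr6:57581000-57664632 on the plus strand with 23 exons. Replicates 1 to 3 of MSR1 KO gave 3218, 4287 and 3321 counts, and those of MSR1 WT gave 1650, 1572 and 2088. In CPM these were 89.6, 108 and 71.5 against 40.0, 33.1 and 50.5. The groups were 20.9 CPM apart at their closest, and MSR1 KO replicate 2 was the highest library. Mean levels were 89.6 ± 18.1 CPM and 41.2 ± 8.77 CPM (SD, n = 3 each). The log2 fold change was 1.12 (SE 0.186, 2.17-fold, edgeR adjusted p = 0.0214). The adjusted p rose to 0.0729 without MSR1 KO replicate 1, 0.0992 without MSR1 WT replicate 1 and 0.0624 without MSR1 WT replicate 2. A processed transcript, Gm45193, shares 1269 exon bases (13.7%) with Herc6 on the same strand and had at most 7 counts in any library.

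Usp18 encodes the deconjugating protease, and lies on the same chromosome as Herc6, at chr6:121245906-121270917 on the plus strand, with 11 exons. Replicates 1 to 3 of MSR1 KO gave 1998, 1706 and 2767 counts, and those of MSR1 WT gave 920, 760 and 1500. In CPM these were 55.6, 42.9 and 59.5 against 22.3, 16.0 and 36.3. The groups did not overlap, with 6.54 CPM between MSR1 KO replicate 2 and MSR1 WT replicate 3. Mean levels were 52.7 ± 8.72 CPM and 24.9 ± 10.4 CPM (SD, n = 3 each). The log2 fold change of 1.08 (SE 0.271, 2.12-fold) was close to that of Herc6 but had a larger error and did not pass (edgeR adjusted p = 0.0634). It passed without MSR1 WT replicate 3, at 1.46 with an adjusted p of 0.0093. Gm44148, a long intergenic RNA on the opposite strand, shares 124 exon bases (4.44%) with Usp18 and had at most 5 counts. The strand setting of the counting is not given in the sources used here, so reads from this stretch cannot be assigned to either strand.

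**Figure D1:**
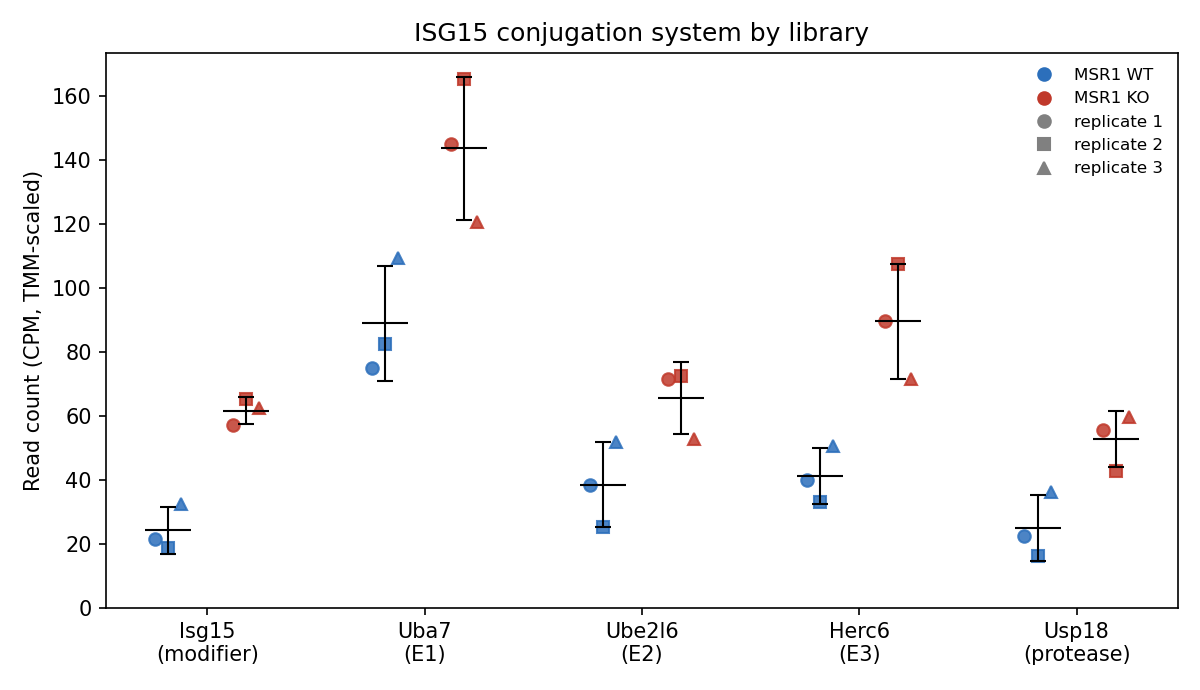
Read counts of the 5 members in each library, in TMM-scaled CPM, with MSR1 WT in blue and MSR1 KO in red. Points are libraries with a marker shape per replicate number, and black lines show the group mean ± SD (n = 3). All red points of a gene lie above all of its blue points, by 24.8 CPM for Isg15 and by 0.816 CPM for Ube2l6.

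In counts of calls, 3 of the 5 members were higher at an adjusted p under 0.05 and 0 were lower. This number rose to 5 when MSR1 WT replicate 3 was left out, and was 0 when MSR1 WT replicate 1 was left out. It was 1 when replicate 1 of MSR1 KO or replicate 2 of MSR1 WT was left out, and Isg15 was then the member called. DESeq2's Wald test called all 5. By the looser definition of a DEG used in the study, a fold change over 1.5 with an unadjusted p under 0.05, all 5 members were higher DEGs, against 3.59% of all tested genes, and 0 were lower, against 5.05%. That number was 4 or 5 with each library left out. Every MSR1 KO library exceeded every MSR1 WT library for all 5 members, against 12.1% of all tested genes, and the reverse held for 0 members, against 13.4%. The median log2 fold change was 1.08 over the members and -0.002 over all tested genes. For single members, the exact permutation test on log2 CPM (two-sided, 3 against 3) gave p = 0.1 for all 5, the smallest value this design allows.

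**Figure D2:**
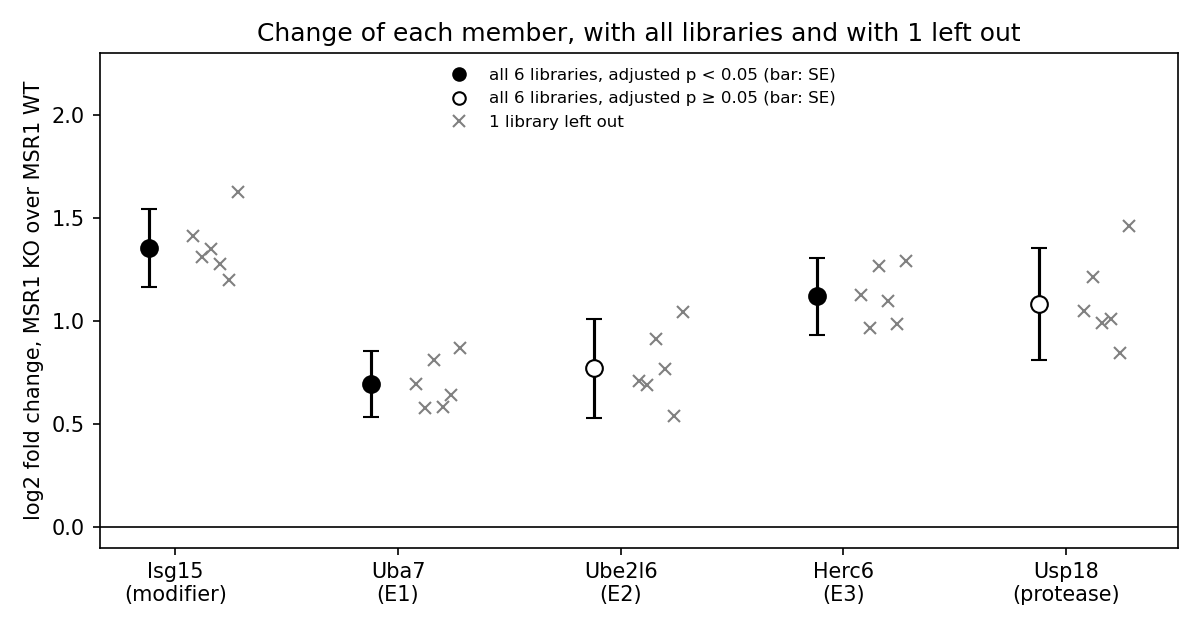
Log2 fold change of each member, MSR1 KO over MSR1 WT. Circles show the fit to all 6 libraries with its SE, filled where the adjusted p was under 0.05, and crosses show the 6 fits with 1 library left out. All crosses are above 0, from 0.54 for Ube2l6 to 1.62 for Isg15.

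Within each genotype the members had part of their library order in common, which the choice of genes did not use. Among the MSR1 WT libraries, replicate 3 was the highest for all 5 members. Replicate 2 was the lowest for 4 of them, and replicate 1 for Uba7. On the log2 scale, MSR1 WT replicate 3 stood above the mean of its group by 0.46 for Isg15, 0.32 for Uba7, 0.49 for Ube2l6, 0.32 for Herc6 and 0.63 for Usp18. Among the MSR1 KO libraries, replicate 2 was the highest for Isg15, Uba7, Ube2l6 and Herc6. Usp18 had the opposite pattern, with replicate 2 the lowest of the MSR1 KO libraries at 0.87 above the MSR1 WT mean and replicate 3 the highest at 1.34. The same replicate 3 was the lowest MSR1 KO library for Uba7, Ube2l6 and Herc6, at 0.46, 0.51 and 0.81 above the MSR1 WT mean. The transcripts of the enzymes that attach ISG15 and of the enzyme that removes it were thus ordered differently over these 3 libraries. This order is a description of single libraries and has no test.

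**Figure D3:**
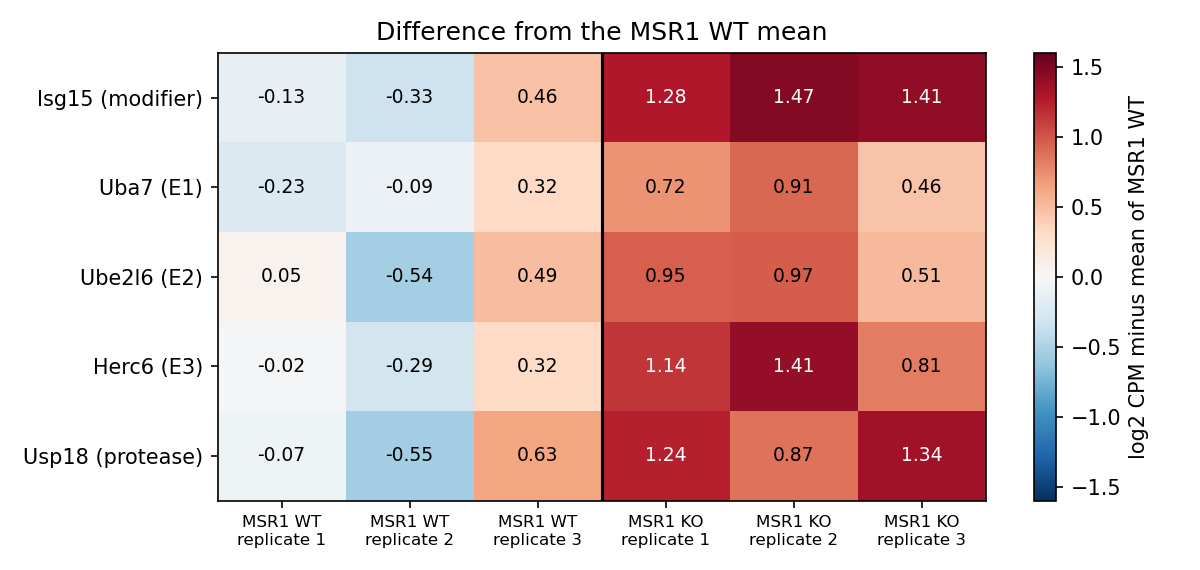
Difference of log2 CPM from the MSR1 WT mean for each member (rows) and library (columns). Red is above the mean and blue below it, and the black line separates the genotypes. MSR1 WT replicate 3 is above 0 for all 5 members, and MSR1 KO replicate 3 is weaker than replicate 2 for 4 members and stronger for Usp18.

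The spread within a genotype was larger for most members than for most genes above a minimum level. Over the 9211 genes with a mean of at least 10 CPM, the median SD of log2 CPM was 0.101 in MSR1 WT and 0.118 in MSR1 KO. In MSR1 WT the SD was 0.413 for Isg15, 0.283 for Uba7, 0.519 for Ube2l6, 0.305 for Herc6 and 0.593 for Usp18. Between 91.5% of genes (Uba7) and 98.3% (Usp18) had a smaller SD in MSR1 WT. In MSR1 KO the SD was 0.227 for Uba7, 0.260 for Ube2l6, 0.296 for Herc6 and 0.250 for Usp18, with 83.9% to 91.6% of genes below. Isg15 was the exception, with an SD of 0.0967 and 38.7% of genes below. The modifier was thus spread more widely than most genes over the MSR1 WT libraries. Over the MSR1 KO libraries its spread was near that of the median gene.

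Levels of different genes can be compared only per length of transcript, and are given here as CPM per kilobase of all exon bases of the gene. Isg15 was the most abundant member in both genotypes, with 81.6 ± 5.41 CPM per kilobase in MSR1 KO and 31.9 ± 9.60 in MSR1 WT (SD, n = 3 each). It was followed by Ube2l6 with 32.9 ± 5.60 and 19.3 ± 6.65. Uba7 had 21.5 ± 3.33 and 13.3 ± 2.70. Usp18 came next with 18.9 ± 3.13 and 8.92 ± 3.72. Herc6 was the least abundant with 9.64 ± 1.95 and 4.44 ± 0.944. Over all 6 libraries, 95.3% of tested genes had a lower level per kilobase than Isg15 and 64.0% a lower level than Herc6.

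In MSR1 KO the ranges of neighbours in this order did not overlap, except for Uba7 and Usp18. In MSR1 WT only Usp18 and Herc6 had separate ranges, although each member was above the next in every single library. The order depends on the length used. By the longest coding transcript, an alternative added after the data were seen, Uba7 stood at 45.0 CPM per kilobase in MSR1 KO against 42.0 for Ube2l6, with overlapping ranges. By that length Isg15 kept the highest mean and Herc6 the lowest, at 18.8 in MSR1 KO and 8.65 in MSR1 WT. The ranges of Isg15 and Uba7 overlapped in MSR1 WT (means 31.9 and 27.8), and Uba7 was the higher of the pair in replicate 2.

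**Figure D4:**
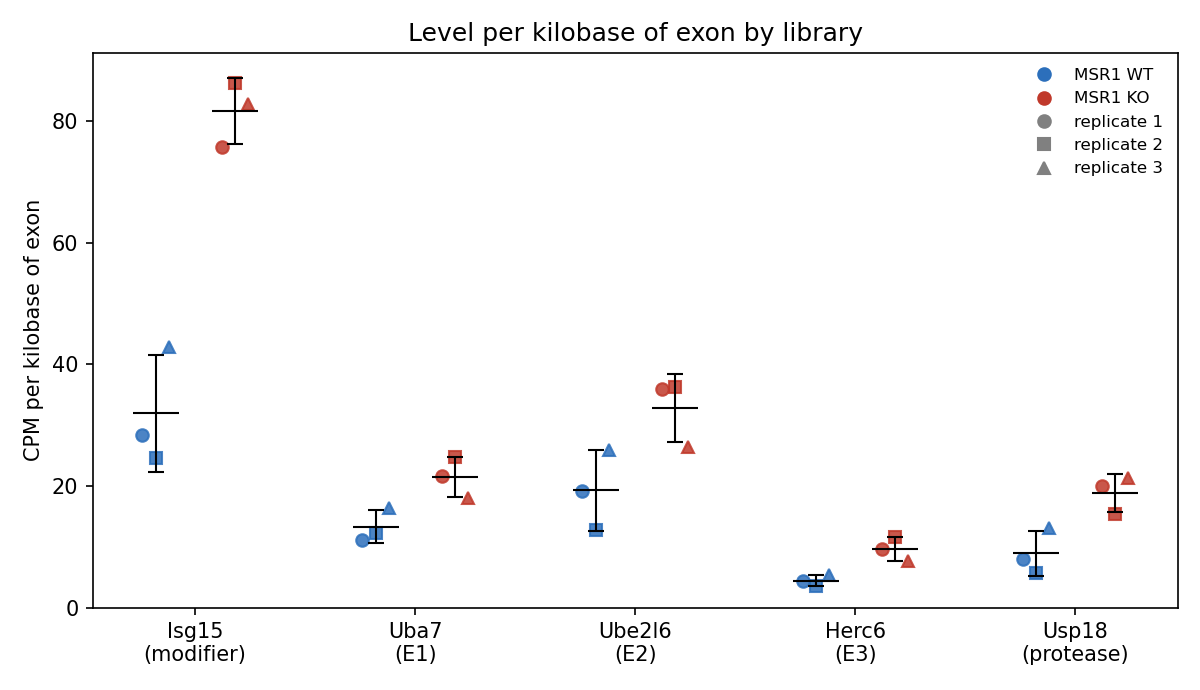
Level of each member in each library as CPM per kilobase of all exon bases, which allows the genes to be compared with each other. Black lines show the group mean ± SD (n = 3). Isg15 is the highest member in both genotypes, at 81.6 in MSR1 KO and 31.9 in MSR1 WT, and Herc6 the lowest, at 9.64 and 4.44.

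Whether members rose by unequal amounts was asked with the log2 ratio of a pair of members within each library, over all 10 pairs. The largest difference was between the modifier and its E1. The log2 ratio of Isg15 to Uba7 was -1.34, -1.34 and -0.95 with MSR1 KO and -1.81, -2.14 and -1.75 with MSR1 WT. The ratio was higher in every MSR1 KO library, and the changes differed by 0.69 (SE 0.179). The change of Isg15 also exceeded that of Ube2l6, by 0.58 (SE 0.205), and the change of Uba7 was below that of Herc6, with a difference of -0.42 (SE 0.126). In these 3 pairs the ratios of the genotypes did not overlap, with p = 0.1 in the exact permutation test, the smallest possible, and 0.333 after Benjamini-Hochberg adjustment over the 10 pairs. By this test no pair can pass the threshold with 3 libraries per genotype. The pairs share members and are not independent, and the share of other gene pairs with separate ratios is not given here.

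The remaining 7 pairs had overlapping ratios. The balance of Isg15 to Usp18, the modifier and the protease that removes it, was 0.04, 0.61 and 0.07 with MSR1 KO and -0.06, 0.22 and -0.17 with MSR1 WT (log2 ratio). The MSR1 KO library with the highest ratio was replicate 2, where Usp18 was lowest. The changes of Isg15 and Usp18 differed by 0.24 (SE 0.216, p = 0.4 in the exact permutation test). Herc6 and Usp18 had the closest changes, with a difference of -0.03 (SE 0.352, exact permutation p = 1.0). An error of that size leaves room for a difference in either direction.

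Related genes outside the 5 members were read from lists. Over all tested genes, edgeR's adjusted p called 2.25% higher and 2.66% lower, so 0 calls in a short list do not set it apart. The share of all tested genes with an unadjusted p under 0.05 is not given here, so such counts have no background. Of 6 other proteins described as ISG15 ligases or belonging to the HERC family, 0 passed edgeR's adjusted p in either direction, 0 had an unadjusted p under 0.05 and 0 passed with DESeq2. Their median log2 fold change was -0.01. Trim25, a ubiquitin and ISG15 ligase of the RIG-I pathway, had 15000, 8997 and 10899 counts in MSR1 KO and 10795, 7526 and 8776 in MSR1 WT, with overlapping groups (0.47, SE 0.259, edgeR adjusted p = 0.380). Arih1, a ligase that also works with UBE2L6, was at -0.14 (adjusted p = 0.388), and Herc1, the member with the most counts, at -0.05 (adjusted p = 0.812). Of 6 other ubiquitin-specific proteases described to react with ISG15, 0 passed the adjusted test, the unadjusted p under 0.05 or DESeq2. Their log2 fold changes ran from -0.21 to 0.28, and Usp5, with the most counts, was at -0.07 (edgeR adjusted p = 0.676).

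The parallel machinery of ubiquitin and other ubiquitin-like modifiers gave 0 calls by edgeR's adjusted p. Of 13 modifiers, 2 had an unadjusted p under 0.05, both higher, and DESeq2 called 1. The median log2 fold change of the modifiers was 0.09. Ubb, a polyubiquitin gene, was at 0.09 (SE 0.110, edgeR adjusted p = 0.744). Of 9 other E1 genes, 1 had an unadjusted p under 0.05, lower in MSR1 KO, and DESeq2 called 0. Uba1, the main E1 of ubiquitin and a relative of Uba7, was at 0.09 (SE 0.068, edgeR adjusted p = 0.564). Of 31 other E2 genes, 1 was higher and 3 were lower at an unadjusted p under 0.05, and DESeq2 called 1 lower. Ube2l3, the closest relative of Ube2l6, had 5008, 2920 and 3742 counts in MSR1 KO and 6063, 2630 and 2203 in MSR1 WT, which overlapped (0.20, SE 0.408, edgeR adjusted p = 0.857). Ube2d3, with the most counts of the E2 genes, was at 0.05 (edgeR adjusted p = 0.835).

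Of 8 genes for the type I interferon receptor, its kinases, the transcription factors STAT2 and IRF9, and SOCS inhibitors, 3 were higher at edgeR's adjusted p under 0.05 and 0 lower, with a median log2 fold change of 0.23. Stat2 had 9932, 11844 and 10474 counts in MSR1 KO and 3997, 4108 and 6155 in MSR1 WT (1.27, SE 0.201, edgeR adjusted p = 0.0193). Irf9 rose by less, from 3481, 3915 and 4303 counts in MSR1 WT to 4481, 5013 and 5881 in MSR1 KO (0.48, SE 0.098, edgeR adjusted p = 0.0353). Both had their highest MSR1 WT count in replicate 3, the library in which all 5 members also peaked. The other call was Socs1, an inhibitor of the receptor's kinases, with 189, 211 and 205 counts against 88, 53 and 107 (1.36, SE 0.304, edgeR adjusted p = 0.0449). Of the receptor chains, Ifnar1 was at -0.09 (edgeR adjusted p = 0.522) and Ifnar2, the chain that USP18 binds, at 0.24 (SE 0.063, edgeR adjusted p = 0.072). Leaving out replicate 1 of MSR1 KO, or replicate 1 or 2 of MSR1 WT, reduced the 3 calls to 0, and leaving out replicate 2 or 3 of MSR1 KO reduced them to 1. DESeq2 called 4 genes of this list higher and 0 lower, and edgeR gave 4 higher and 1 lower at an unadjusted p under 0.05.

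Interferon genes themselves were nearly unread. Of 20 in the table, 16 were listed at 0 in every library and 0 had enough counts to be tested. Ifnb1 had 8, 6 and 0 counts in MSR1 KO and 0, 0 and 4 in MSR1 WT. Ifng had 4 counts in MSR1 WT replicate 1 and 0 in the other 5 libraries. With 0 reads seen, as many as 3 could have been missed, or 0.0632 to 0.0835 CPM depending on the library, for counting error only. The libraries were made from the macrophages at a single time, and RNA of the BMSCs was not analysed here.

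Among 18 genes for proteins described to carry ISG15, 6 were higher and 1 was lower at edgeR's adjusted p under 0.05, with a median log2 fold change of 0.13. The higher ones were Mx1, an antiviral GTPase (1.26, edgeR adjusted p = 0.026), Ifih1 and Ddx58, sensors of viral RNA (0.71 and 0.68, edgeR adjusted p = 0.027 and 0.038), Parp12 (0.61, edgeR adjusted p = 0.040), Eif2ak2, the RNA-dependent kinase PKR (0.57, edgeR adjusted p = 0.032), and Sting1, the adaptor of DNA sensing (0.52, edgeR adjusted p = 0.024). The lower one was Pcna, the sliding clamp of DNA replication (-0.41, edgeR adjusted p = 0.045). Several of these genes are themselves known interferon targets, and Jak1, a kinase of the receptor at -0.14 (edgeR adjusted p = 0.245), stands on both lists. The 6 higher calls became 0 with any single library left out except MSR1 WT replicate 3, without which there were 7. They also became 0 with the replicate number as a block and all 6 libraries kept. The call of Pcna was lost with every library left out except MSR1 KO replicate 2. Transcripts do not show whether any protein was modified. For LFA-1, described as the receptor of secreted ISG15, edgeR's adjusted test called 0 of 2 subunits, with 1 higher and 1 lower at an unadjusted p under 0.05 and 1 higher by DESeq2. Itgal was at 0.47 (edgeR adjusted p = 0.163) and Itgb2 at -0.22 (edgeR adjusted p = 0.102).

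**Figure D5:**
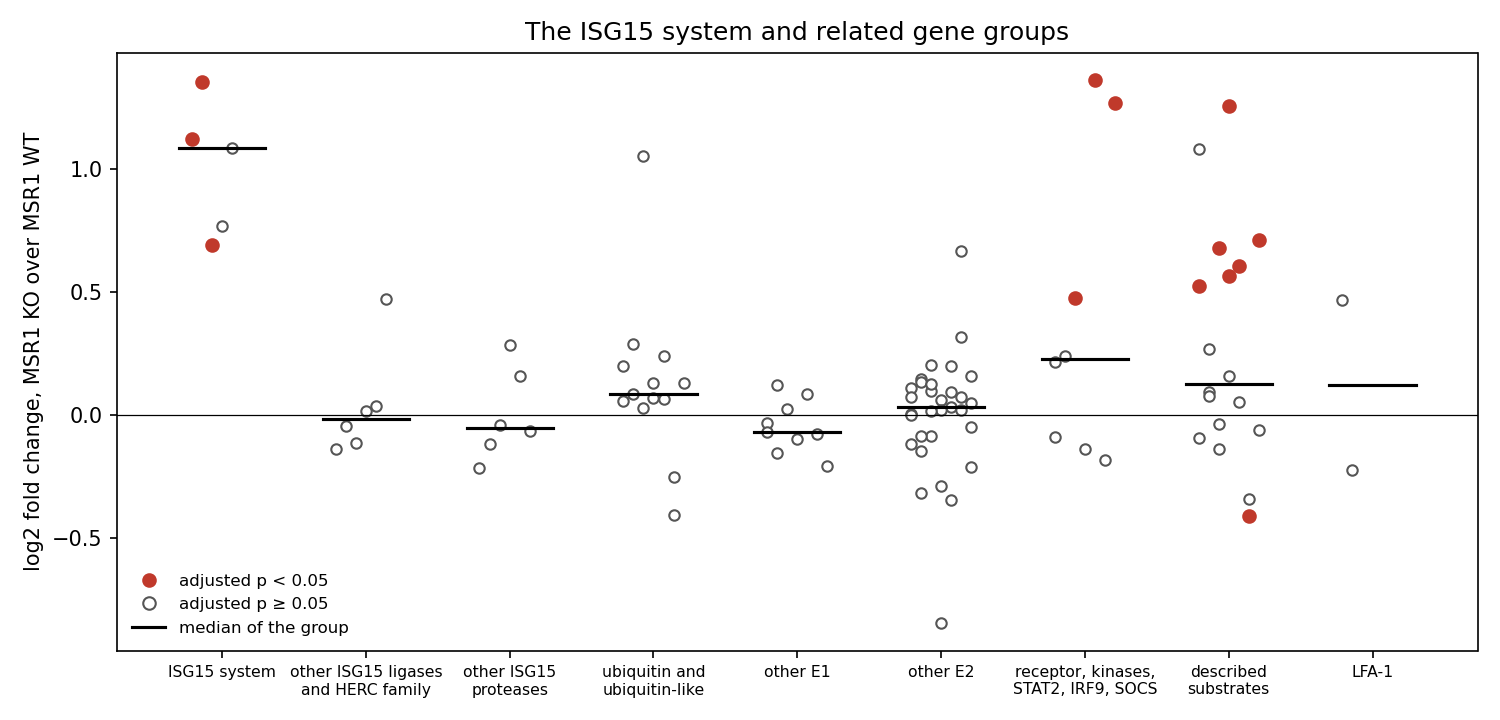
Log2 fold change, MSR1 KO over MSR1 WT, of the 5 members and of the related gene groups, with 1 point per tested gene. Filled red points had an adjusted p under 0.05 in edgeR's test and black lines are group medians. The median of the members is 1.08, those of the other groups lie between -0.07 and 0.23, and Jak1 is drawn in both groups that list it.

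The genes whose profile over the 6 libraries was most like that of each member were found among the 9211 genes with a mean of at least 10 CPM, by the root mean square difference of log2 CPM after centring on the MSR1 WT mean. The nearest to Isg15 were Phf11d (0.0886), Ly6c2 (0.0913) and Ifi206 (0.110). The nearest to Uba7 were Fpr2 (0.0624), Crybg1 (0.0733) and Parp12 (0.0909). Ube2l6 had more distant neighbours, Trim30d (0.167), Ddx60 (0.180) and Prss34 (0.183). Herc6 was nearest to Enpp4 (0.1003), Irgm1 (0.101) and Fcgr1 (0.114). Usp18 was nearest to Mx2 (0.138), H2-Q7 (0.152) and Xaf1 (0.154). No member was among the 3 nearest genes of another member. The best rank was that of Isg15 among the neighbours of Usp18, 30 with a difference of 0.276, and the worst was that of Isg15 among the neighbours of Uba7, 3762 with 0.521. The points share their libraries, so likeness in this measure is a description only.

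Other cells in the culture were read from marker genes, since fewer cells of a type and less RNA per cell cannot be told apart in bulk libraries. The 8 macrophage markers summed to 22534 to 23688 CPM in MSR1 KO and 22845 to 25416 CPM in MSR1 WT, so the labelled cell type had its markers at high levels in all libraries. Of these, Fcgr1 was higher (1.14, edgeR adjusted p = 0.018), a call lost when replicate 1 of either genotype was left out. Itgam was at -0.32 (edgeR adjusted p = 0.251). The 12 stromal markers summed to 1212 to 1591 CPM in MSR1 KO and 1541 to 1951 CPM in MSR1 WT, and 3 were lower (Pdgfra, Pdgfrb and Cxcl12). These 3 calls became 0 when replicate 1 of either genotype was left out and 1 when MSR1 KO replicate 3 was left out. At an unadjusted p under 0.05, edgeR had 5 stromal markers lower and 2 higher, the latter Thy1 (1.31, edgeR adjusted p = 0.091) and Eng (0.47, edgeR adjusted p = 0.119). DESeq2 likewise called 5 lower and 2 higher. Conventional dendritic cell markers summed to 18.1 to 28.2 CPM in MSR1 KO and 78.8 to 146 CPM in MSR1 WT. Nearly all of this came from Itgax (-2.50, edgeR adjusted p = 0.004), the 1 lower call among 5 tested. The paper stained its co-cultured macrophages for CD11C, the product of Itgax, so this gene cannot be assigned to dendritic cells here. Flt3 was at -0.15 and Zbtb46 at -0.53 (edgeR adjusted p = 0.959 and 0.513). Xcr1 had 16, 36 and 40 counts in MSR1 KO against 7, 8 and 8 in MSR1 WT (2.04, edgeR adjusted p = 0.060), Clec9a was at 1.80 (edgeR adjusted p = 0.362), and DESeq2 called 1 gene of this list higher and 1 lower.

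Some marker sums, like the members, were higher in every MSR1 KO library than in any MSR1 WT library. The 6 NK and T cell markers summed to 19.4, 18.3 and 23.5 CPM in MSR1 KO and 7.57, 5.14 and 16.4 CPM in MSR1 WT, with the highest MSR1 WT value in replicate 3, where all 5 members also peaked. Within MSR1 KO this sum was lowest in replicate 2, where Isg15, Uba7, Ube2l6 and Herc6 were highest and Usp18 was lowest. It was highest in replicate 3, where Usp18 was highest and Uba7, Ube2l6 and Herc6 were lowest. Of 4 NK and T cell markers tested, Klrb1c was higher (1.39, edgeR adjusted p = 0.028). Ncr1 was at 0.71, Nkg7 at 1.25 and Cd3g at -0.34 (edgeR adjusted p = 0.392, 0.269 and 0.857). With any single library left out except MSR1 WT replicate 3, 0 of this list were called, and without that library 2 were. Cd3e and Cd3d had at most 19 counts in a library. Plasmacytoid dendritic cell markers summed to 3.57 to 5.48 CPM in MSR1 KO and 1.48 to 3.51 CPM in MSR1 WT. Most of this came from Ccr9 (1.69, edgeR adjusted p = 0.101). Siglech went the other way, at -0.78 (edgeR adjusted p = 0.629), and Cox6a2 was at 0.27 (edgeR adjusted p = 0.855). Of 3 tested, 0 passed, 1 was higher at an unadjusted p under 0.05 and 1 by DESeq2, and Ly6d and Klk1 were at 0 in every library. Neutrophil markers summed to 636 to 1039 CPM in MSR1 KO and 419 to 799 CPM in MSR1 WT, with 0 of 8 called by edgeR's adjusted p or DESeq2 and 1 higher at an unadjusted p under 0.05. B cell markers summed to 19.1 to 22.9 CPM and 15.4 to 20.2 CPM, with 1 tested and 0 called by edgeR, at an unadjusted p under 0.05 or by DESeq2. In MSR1 WT the neutrophil and B cell sums were lowest in replicate 3, where all 5 members peaked. Erythroid markers summed to at most 0.41 CPM. The part of these cells in the differences of the 5 members was not tested.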

How the data were processed

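Macrophage RNA was sequenced as mRNA libraries on an Illumina instrument. The deposited table holds raw counts per gene and library, which were used here. It also holds a signal column per library (counts divided by a size factor), gene lengths, and the authors' own log2 fold change, p-value and adjusted p-value, which were not used. The paper names TopHat and FPKM, whereas the submitters' processing notes list fastp 0.17.1, HISAT2 2.1.0, DESeq2 1.18.1 and R 3.4.3. The genome build, counting program and strand setting are not given in the sources used here. GENCODE (GRCm38) lists 52403 of the 52550 gene identifiers, 49909 of them with identical coordinates. Spreadsheet software had turned 27 symbols into dates, none of them a member.

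Groups followed the genotype in the labels. The filter filterByExpr kept 16402 genes. After TMM scaling they went into edgeR's quasi-likelihood test (version 4.0.16, R 4.3.3) with genotype as the only term. Each SE is the absolute log2 fold change divided by the root of the F statistic, and Benjamini-Hochberg adjustment covered the 16402 genes. Log2 CPM used a prior count of 2. Exact permutation tests used scipy 1.17.1. Depth of 36143518 to 47417448 counts per library gave at least 760 counts to each member. Reads carried no molecular identifiers, so a limit from a count covers counting error only. Replicates differed beyond sampling noise.

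The members and lists were chosen with earlier results of these data known. The genes named were the members, Msr1, the called and the most abundant genes of each list, close relatives of the enzymes, and the 3 nearest profiles of each member. Of the other marker lists, called genes and those that carry most of a sum are named. Other genes were chosen after their values were seen. They were Thy1, Eng, Itgam, Xcr1, Clec9a, Flt3, Zbtb46, Siglech, Cox6a2, Ncr1, Nkg7, Cd3g, Cd3e, Cd3d, Ly6d, Klk1, Ifng and Ifnb1. Alternatives were the Wald test of DESeq2 1.42.0, DESeq2 size factors within edgeR, scaling by library size only, a filter that keeps any gene with a read, a minimum of 10 counts per library, a block for the replicate number, a prior count of 0.5 and the omission of single libraries. List counts under each alternative and the transcript length by longest coding transcript were added after the data were seen. Protein sequences were not used here. Of the lists, 2 genes are not reported here and were left out of the list counts.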

Additional observations from a re-analysis of the deposited data

How the results depend on the processing

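All 5 members kept a positive log2 fold change under all 12 alternatives, and the calls moved. Uba7 lost its call with library size alone (0.66, adjusted p = 0.0579) and without a filter (0.69, adjusted p = 0.0704). DESeq2's Wald test called Ube2l6 (0.77, adjusted p = 0.0088) and Usp18 (1.09, adjusted p = 0.000325), so that all 5 members passed, and at least 10 counts in every library gave a call for Usp18 (1.09, adjusted p = 0.0482). The numbers of genes higher and lower were 727 and 850 with DESeq2 and 237 and 288 without a filter, where more genes were tested. With each library left out, edgeR's log2 fold change ran from 1.20 to 1.62 for Isg15, 0.58 to 0.87 for Uba7, 0.54 to 1.04 for Ube2l6, 0.97 to 1.29 for Herc6 and 0.84 to 1.46 for Usp18. The number of members called then ran from 0 to 5, of genes higher from 18 to 407 and of genes lower from 53 to 372, with fewer samples in each fit. The difference of changes between Uba7 and Ube2l6 then ran from -0.25 to 0.11 and that between Herc6 and Usp18 from -0.31 to 0.22, so neither has a fixed sign. The cause of the other shifts was not tested.

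With the replicate number as a block, Uba7 was at 0.70 (adjusted p = 0.121) and Herc6 at 1.12 (adjusted p = 0.0777). Usp18 passed at 1.15 (adjusted p = 0.0493), and 59 genes were higher and 78 lower. The block left 0 higher calls among receptor genes, proteins described to carry ISG15, macrophage markers, and NK and T cell markers. The lower stromal calls and that of Pcna were also lost, and the lower call among conventional dendritic cell markers stayed. The libraries share only a number: deviations of same-numbered libraries from their group means correlated at -0.0261, 0.0187 and -0.0048 over 16402 genes. Of 12 alternatives, the adjusted p was under 0.05 in 11 for Isg15, 8 for Herc6, 4 for Uba7, 4 for Usp18 and 2 for Ube2l6. Spread between 3 libraries, not depth, limits the members' errors.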
